A study of Harpegnathos saltator with 18 samples.

Results

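The genes described here were expressed at similar levels in the brain and in the ovary of the ant Harpegnathos saltator, and at much lower levels in the retina and the fat body. They were chosen by their own levels. A gene with an HSALG identifier was taken when its mean was 10 RPKM or more in each of non-visual brain, optic lobe and ovary, when these 3 means lay less than 3-fold apart, and when the lowest of them was at least 4 times the higher of the means of retina and fat body. RPKM is the number of reads per kilobase of gene model, scaled to the total reads of the library. The rule found 62 genes among 20317 HSALG rows and 20755 rows in all. The antenna was the only tissue that the rule did not use. The levels in the other 5 tissues are therefore a description, and their height or lowness is no finding.

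Polyadenylated RNA of 6 tissues was sequenced, with 3 libraries per tissue and 18 in all. Antenna, non-visual brain, optic lobe, retina and fat body came from workers, and the ovary came from gamergates, which are workers that mate and lay eggs. Ovary and caste therefore cannot be told apart, and the labels give no genotype, strain, age or treatment. The labels do not say whether the replicates came from separate or pooled animals, so the p-values here speak of the spread among libraries, which may be technical. The labelled tissues were not checked against marker genes, because none of the identifiers (0) matched the 14329 genes of the reference table, and the genes are given by identifier without name or position.

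The insect ovary makes large stores of RNA and protein, which nurse cells pass into the oocyte and which direct the first steps of the embryo. Neurons likewise store RNA away from the cell body and control when it is translated. In Drosophila several RNA-binding regulators, among them Pumilio, Staufen and Nanos, act both in the germline and in neurons. The retina and the fat body are built of cells that devote much of their RNA to a few products, the photoreceptor proteins and the secreted proteins of the blood. Whether any of the 62 genes encodes such a regulator was not examined, since the identifiers carry no names.

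Over the 62 genes the median of the tissue means was 18.6 RPKM in non-visual brain, 18.4 RPKM in optic lobe and 17.3 RPKM in ovary, against 2.75 RPKM in retina and 2.49 RPKM in fat body. In bulk RNA, fewer cells of a type and less RNA per cell cannot be told apart. The lowest of the 3 brain and ovary means ran from 10.1 to 109.5 RPKM, and lay at 20 RPKM or more in 18 genes. It was under 20 RPKM in the other 44. In retina 61 of the 62 still averaged 1 RPKM or more, and in fat body 54 did. In 51 genes each of the 9 libraries of brain parts and ovary lay above each of the 6 libraries of retina and fat body, which was so in 7.79% of the 12996 rows tested. The rule used these same values. In the other 11 genes the groups overlapped, and in 7 of these the lowest library on the brain and ovary side was ovary replicate 2.

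**Figure D1:**
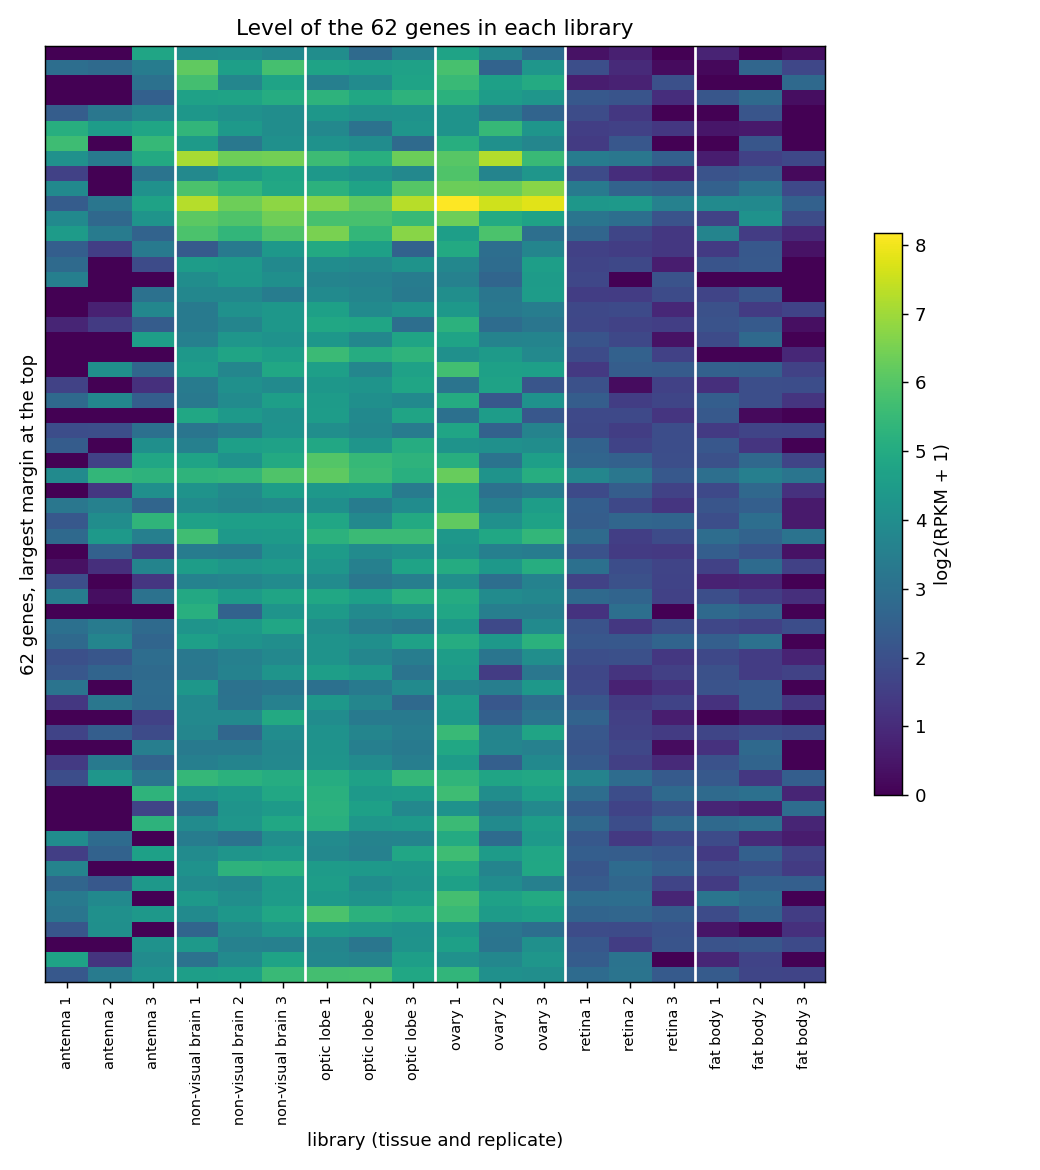
Levels of the 62 genes (rows, largest margin at the top) in the 18 libraries (columns), coloured by log2(RPKM + 1). The 9 columns of brain parts and ovary are brighter than the 6 of retina and fat body, and the antenna columns are mixed, with 19, 24 and 8 of the 62 genes at 0 in replicates 1, 2 and 3.

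The 62 genes had no common peak among the 3 tissues. The highest mean was in ovary for 26 genes, in optic lobe for 23 and in non-visual brain for 13. The largest of the 3 means was on median 1.56 times the smallest, and 54 genes lay within 2-fold. HSALG003696.1 was the most even, at 15.7 RPKM in non-visual brain, 15.8 in optic lobe and 15.9 in ovary. HSALG007158.2 was the least even, at 52.5 RPKM in non-visual brain, 78.8 in optic lobe and 28.9 in ovary. Both were picked for description after their values were seen.

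The ovary libraries differed from each other more than the brain libraries did. The coefficient of variation of the 3 libraries had a median over the 62 genes of 57.4% in ovary, against 28.9% in non-visual brain and 29.0% for optic lobe. Ovary replicate 1 was the highest of the ovary libraries in 47 of the 62 genes, and ovary replicate 2 the lowest in 42. Shares over all rows were not counted for this. The median level of the 62 genes was 28.8, 12.0 and 17.5 RPKM in ovary replicates 1, 2 and 3. Over all rows tested the median was 8.47, 3.57 and 5.14 RPKM, so this order was not particular to the 62. The highest row of each of those libraries, taken separately, held 5.80%, 31.4% and 10.04% of all RPKM in it. The part of such rows in the difference was not tested. Without ovary replicate 1 the rule chose 37 genes, of which 33 were among the 62.

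Of the 62 genes, HSALG004273.1 had the highest level shared by brain and ovary. It stood at 154, 81.8 and 108.8 RPKM in non-visual brain, 100.8, 71.9 and 156 RPKM in optic lobe, and 287, 191 and 221 RPKM in ovary. In retina it stood at 19.2, 20.4 and 11.0 RPKM, and in fat body at 13.9, 13.6 and 4.78 RPKM. Each brain and ovary library was above each retina and fat body library, and ovary was the highest tissue. The antenna libraries, at 4.15, 8.28 and 25.0 RPKM, overlapped with retina and fat body and lay below each brain and ovary library (log2 difference to brain and ovary -3.70, SE 0.46, adjusted p = 2e-05, limma). HSALG000817.2 was next, with 135, 82.1 and 85.9 RPKM in non-visual brain, 47.9, 34.5 and 80.0 RPKM in optic lobe and 64.8, 149.6 and 45.0 RPKM in ovary. It had 9.67, 8.52 and 4.64 RPKM in retina and 0.582, 1.99 and 2.38 RPKM in fat body, with no overlap between the sides.

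The margin, which is the lowest brain or ovary mean over the higher of the retina and fat body means, was widest in HSALG005957.1, at 32.5. This gene stood at 14.9, 15.7 and 13.2 RPKM in non-visual brain, 15.1, 6.13 and 11.1 RPKM in optic lobe and 25.9, 12.8 and 6.28 in ovary, against 0.332, 0.663 and 0 in retina and 0.751, 0 and 0.244 in fat body. It was close to silent in both tissues of the low side. HSALG004530.2 followed at 9.33, with 70.9, 23.2 and 52.9 RPKM in non-visual brain, 26.0, 23.1 and 24.6 RPKM in optic lobe and 54.0, 5.10 and 18.5 in ovary. Its retina values were 2.94, 0.955 and 0.191 RPKM, and its fat body values 0.136, 5.45 and 2.31 RPKM. Here the sides overlapped, because fat body replicate 2 lay above ovary replicate 2.

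**Figure D2:**
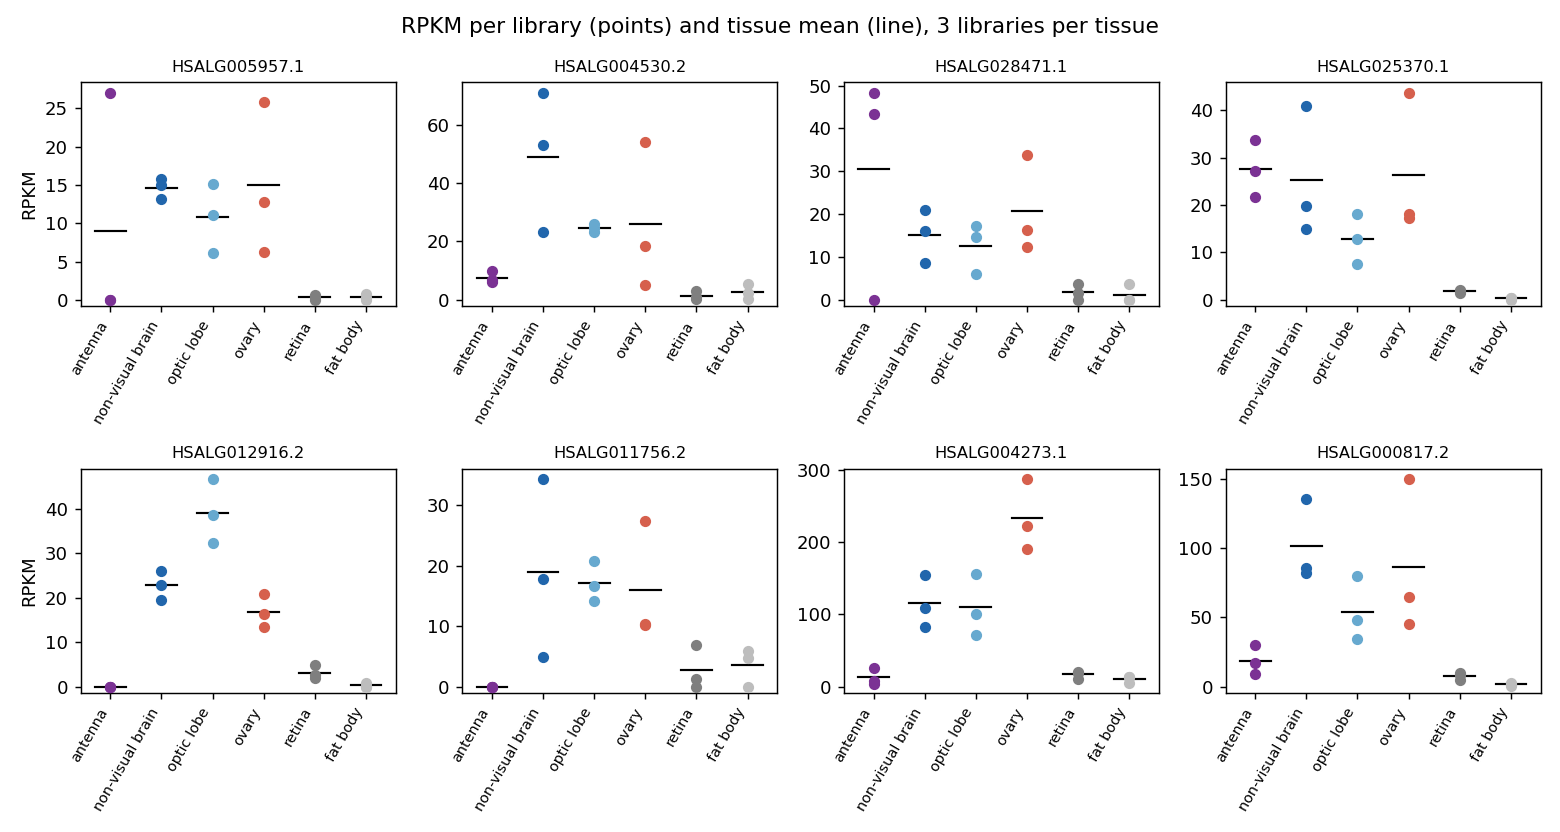
RPKM of 8 of the genes in each library (points) with the mean of the 3 libraries (line), by tissue. Antenna levels range from 0 in all 3 libraries (HSALG012916.2, HSALG011756.2) to above every brain and ovary library (HSALG028471.1, replicates 1 and 3). In HSALG025370.1 antenna levels lie in the range of non-visual brain and ovary. They lie at 0, 0 and 27.1 RPKM in HSALG005957.1.

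The remaining margins were close to the limit. The median margin was 4.74, 36 of the 62 genes lay under 5, and 13 reached 6 or more. Just inside the limit stood HSALG026586.1, at 4.02, with a lowest mean of 24.1 RPKM in ovary against 6.01 RPKM in retina. Just outside stood HSALG010568.2, at 3.95, with 12.7 RPKM in non-visual brain against 3.23 RPKM in retina. In all, 2535 HSALG genes were even across brain parts and ovary at 10 RPKM or more, with a median margin of 1.17. Of these, 460 had a margin of 2 or more, 133 of 3 or more and 62 of 4 or more, so the 62 were the upper end of a continuous range.

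The margin was also read in libraries that the choice did not use, where many genes fell under the limit of 4. When the rule was applied to replicates 2 and 3 of the 5 tissues, it chose 50 genes, and in the replicates 1 their median margin was 2.52, with 13 of 50 at 4 or more. Applied to replicates 1 and 3 it chose 113 genes, with a median of 1.71 and 6 at 4 or more in the replicates 2. Applied to replicates 1 and 2 it chose 30 genes, with a median of 5.13 and 22 at 4 or more in the replicates 3. In these left-out libraries the lowest brain or ovary value still exceeded the higher retina or fat body value in 44 of 50, 95 of 113 and 29 of 30 genes. With all replicates, 1512 of the 2535 even genes had a margin of 1 or more. Shares over all even genes in the left-out libraries were not counted. The replicate number joins libraries of different tissues here only by name.

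The number of genes depended on how the libraries were scaled to each other. The 10 highest rows of a library took 5.48 to 9.32% of all RPKM in the brain libraries and 22.1 to 52.2% in ovary, against 39.2 to 46.6% in retina and 24.1 to 31.4% in fat body. Over all 12996 rows tested, the mean of brain parts and ovary lay above that of retina and fat body by a median of 0.95 on the log2(RPKM + 1) scale. For the 62 genes it lay 2.46 above, which is 1.51 more than for the rows tested. With median-ratio factors, which bring the typical gene of each library to the same level, those medians were 0.32 and 1.65, and the difference between them was 1.33. The rule then chose 3 genes, of which 2 were among the 62. The margins of the 62 then had a median of 2.31 and ran from 1.77 to 12.6, with 4 genes at 4 or more and 37 at 10 RPKM or more in all 3 tissues. With quantile normalization the rule chose 1 gene, and the median margin of the 62 was 2.03. Under both scalings all 62 genes had their lowest brain or ovary mean above both retina and fat body. With median-ratio factors this was given in advance by the rule. The factors ran only from 0.526 in ovary replicate 1 to 1.93 in retina replicate 3, while every deposited margin was 4.02 or more. With quantile normalization the lowest margin of the 62 was 1.23, in values that the rule had used.

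**Figure D3:**
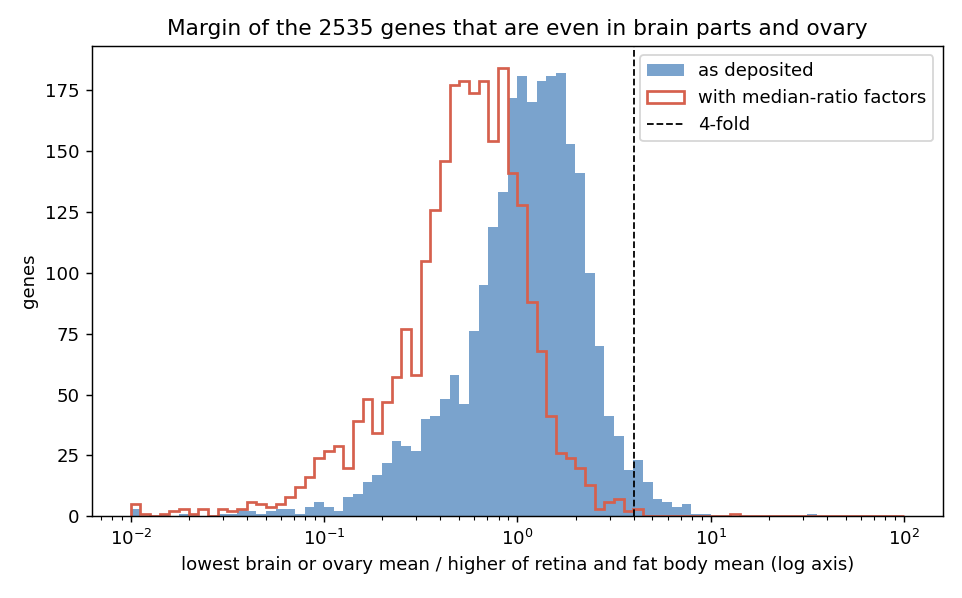
Number of genes by margin (log axis) for the 2535 genes even across brain parts and ovary as deposited, with deposited RPKM (filled) and after median-ratio factors (outline). The median margin is 1.17 as deposited and 0.56 with median-ratio factors, and the dashed line marks 4-fold.

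The antenna played no part in choosing these genes, so their level there could be read afresh. The 2 sides it is set against were chosen by the rule to lie at least 4-fold apart. A wide space between them was therefore given in advance. Their antenna mean had a median of 6.50 RPKM and lay on median at 40.4% of the lowest brain or ovary mean. It was between the 2 sides in 48 genes, at or below the higher of retina and fat body in 12 genes, and at or above the lowest brain or ovary mean in 2 genes. The same counts were not made over all rows, and these counts leaned on antenna replicate 3. Without it, 26 genes were at or below the higher of retina and fat body and 2 at or above the lowest brain or ovary mean, and taken singly, replicates 1, 2 and 3 had 32, 35 and 13 genes at or below. Another 2473 genes met the same limits in brain and ovary but were not low in retina and fat body. For them the antenna lay on median at 75.4% of the lowest mean. It reached that mean in 32.8% of them, against 3.23% of the 62. The sets were not matched, since the 3 means lay on median 1.73-fold apart in the 2473 and 1.56-fold in the 62. The lowest mean had a median of 18.7 and 15.3 RPKM. For 381 genes even in both brain parts and low in ovary, retina and fat body, the antenna was at a median of 28.3% of the lower brain mean, and for the 62 the same measure was 35.1%. Such shares over genes carry no test, since genes are not replicates.

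The antenna libraries were shallow and unlike each other. Their totals were 4.73, 2.37 and 3.04 M (mega) reads in replicates 1, 2 and 3, against 8.20 to 30.1 M in the other tissues. A median of 23, 10 and 32.5 reads per gene lay behind the 62 antenna values of the 3 libraries. The median level of the 62 was 3.26, 1.91 and 7.39 RPKM, and replicate 3 was the highest antenna library in 33 genes. In replicate 3, 14 genes lay at or above the lowest brain or ovary mean, against 4 in replicate 1 and 2 in replicate 2. Without replicate 3 the antenna stood at 25.0% of the lowest mean on median, and at 54.9% for the 2473 genes.

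The antenna libraries also held different amounts of RNA typical of other tissues. RNA typical of a tissue was read from HSALG genes at 50 RPKM or more in it and 30-fold or more above every remaining non-antenna tissue. Antenna levels were not used for these lists, so the antenna's own expression and RNA carried over cannot be told apart. Over all rows tested the median was 1.11, 0.791 and 4.57 RPKM in antenna replicates 1, 2 and 3, so replicate 3 was the highest there too. The 39 genes of the retina list lay on median at 0.366%, 2.93% and 17.2% of their retina level in antenna replicates 1, 2 and 3. The 16 fat body genes lay at 0%, 0.344% and 6.27%, the 85 ovary genes at 0%, 1.85% and 0%, and 8 genes of both brain parts at 4.99%, 11.2% and 22.9%. The 6 genes of non-visual brain alone had a median of 0% in each replicate, and the 1 gene of optic lobe alone was at 0%, 0% and 41.3%. Summed RPKM over the retina list was at 1.93%, 2.97% and 35.4% of its retina level in antenna replicates 1, 2 and 3. The same sums were 1.08%, 1.28% and 7.68% for fat body, 0.149%, 4.14% and 1.62% for ovary, and 9.07%, 15.8% and 19.2% for both brain parts. Of the retina list, 17, 8 and 3 genes were at 0 in antenna replicates 1, 2 and 3. For the fat body list these counts were 10, 8 and 3, for the ovary list 63, 33 and 54, for the list of both brain parts 2, 1 and 1, for non-visual brain alone 4, 4 and 4, and for optic lobe alone 1, 1 and 0. Retina, fat body and joint brain genes were thus nearest to their tissue level in replicate 3, and ovary genes in replicate 2. Their part in the antenna levels of the 62 genes was not tested.

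**Figure D4:**
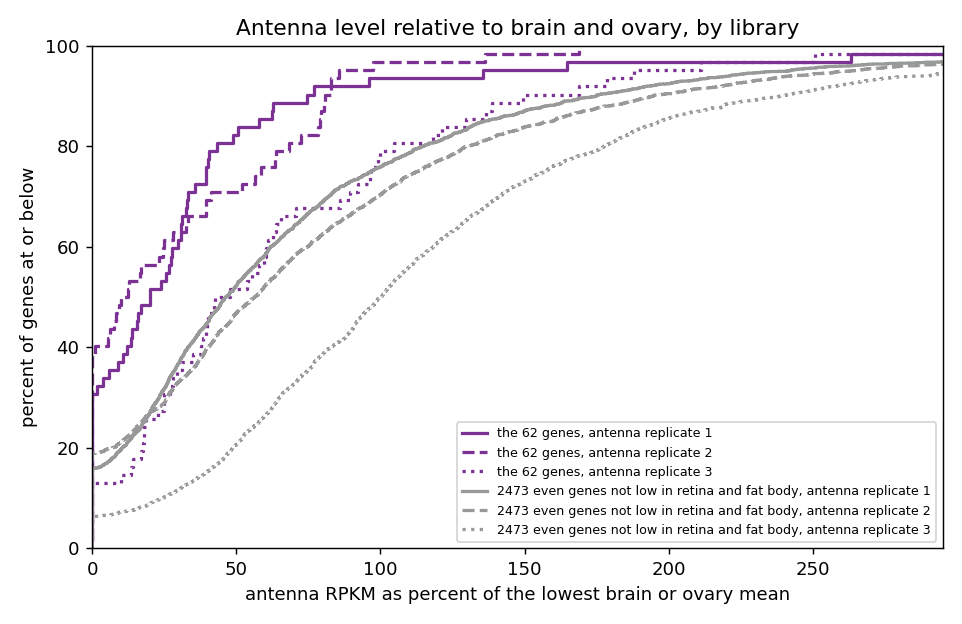
Cumulative percent of genes (vertical axis) by antenna RPKM as a percent of the lowest brain or ovary mean (horizontal axis). Lines show the 62 genes and the 2473 other even genes not low in retina and fat body, 1 line per antenna library. The 62 genes lie to the left of the others in each of the 3 libraries, and replicate 3 lies to the right of replicates 1 and 2 over most of the range for both sets.

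Against the mean of non-visual brain, optic lobe and ovary, the antenna was lower in 47 of the 62 genes and higher in none (0) by limma (adjusted p under 0.05 and at least 1 on the log2 scale). By limma at an unadjusted p under 0.05, 51 genes were lower and 0 higher. The share of all rows at that cutoff was not counted. The difference was below 0 in 61 of the 62 genes, and in 81.7% of all rows tested. At the adjusted threshold, 37.6% of all 12996 rows tested were lower in antenna and 4.34% were higher. These were 4889 and 564 rows, and 2144 and 845 with quantile normalization. The share lower among the 62 was 75.8%, and among the 2473 other even genes it was 43.5%. The median log2 difference of the 62 was -2.17, against -0.99 for all rows. The brain and ovary side was chosen to be high, which tilts this comparison. In 25 genes each of the 3 antenna libraries lay below each of the 9 brain and ovary libraries, against 11.7% of the rows tested. Without antenna replicate 1, 30 genes were lower, beside 3615 of all rows. With quantile normalization 29 were, beside 2144 of all rows. The count over all rows thus fell as well.

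No antenna read fell on 3 of the genes. Of these, HSALG012916.2 was listed at 0 in all 3 antenna libraries, against 19.5, 26.1 and 22.8 RPKM in non-visual brain, 46.7, 32.3 and 38.7 RPKM in optic lobe and 16.3, 20.8 and 13.3 RPKM in ovary. The floor was set at 3 reads summed over the antenna libraries, or 0.306 RPKM at its coding length of 966 bases. Against the ovary mean, the lowest of the 3, the antenna level was at least 54.9-fold lower (log2 difference to the mean of the 3 tissues, on the log2(RPKM + 1) scale, -4.67, SE 0.38, adjusted p = 1.96e-07, limma). Fat body was almost as low, at 0, 0 and 0.883 RPKM. HSALG011756.2 was at 0 in the 3 antenna libraries too, against 34.3, 4.88 and 17.7 RPKM in non-visual brain, 20.9, 14.1 and 16.6 RPKM in optic lobe and 27.3, 10.2 and 10.3 RPKM in ovary. Its antenna level was at least 17.4-fold below the ovary mean (log2 difference to the mean of the 3 tissues, on the log2(RPKM + 1) scale, -4.03, SE 0.67, adjusted p = 0.000233, limma). Its non-visual brain libraries varied widely, and replicate 2 lay below the highest retina library, at 6.95 RPKM. HSALG006549.2, named after its values were seen, was the third gene, with 28.2, 19.8 and 16.5 RPKM in non-visual brain, 22.1, 13.8 and 26.4 RPKM in optic lobe and 7.05, 22.0 and 3.61 RPKM in ovary. Its antenna level was at least 62.5-fold below the ovary mean. These floors cover counting error only. They treat reads as independent, which may not hold here, so the fold values may be too large.

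Against the mean of retina and fat body, the antenna was higher in 5 of the 62 genes and lower in none (0) by limma. By limma at an unadjusted p under 0.05, 13 were higher and 3 lower. The share of all rows at that cutoff was not counted. At the adjusted threshold the share higher was 8.06%, against a background of 5.32% of the rows tested, and 6.03% of the rows were lower. These were 692 and 784 rows, against 1190 and 593 with libraries rescaled to the same sum of RPKM, 623 and 1689 with median-ratio factors and 609 and 1453 with quantile normalization. Retina and fat body were chosen to be low, which tilts this comparison as well. The difference was above 0 in 40 genes and below 0 in 22, with a median of 0.54 on the log2 scale, against -0.12 for all rows. Over all rows tested it was above 0 in 41.3% and below 0 in 56.0%. In 10 genes each of the 3 antenna libraries lay above each of the 6 retina and fat body libraries, against 5.01% of the rows tested. Without antenna replicate 3, 7 genes were higher and 5 lower, and without antenna replicate 1, 1 was lower. Over all rows the count lower was also larger without antenna replicate 3. By fits without the other tissues or with library weights, 1 gene was higher.

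HSALG025370.1 had antenna levels in the range of its non-visual brain and ovary libraries. It stood at 33.8, 21.7 and 27.1 RPKM in antenna, against 40.9, 19.9 and 14.9 RPKM in non-visual brain, 12.9, 7.50 and 18.1 RPKM in optic lobe and 17.3, 43.8 and 18.2 RPKM in ovary. Retina had 1.88, 1.99 and 1.48 RPKM and fat body 0.396, 0.478 and 0 RPKM. The antenna thus overlapped with non-visual brain and ovary and with neither tissue of the low side. Each antenna library lay above each optic lobe library. The antenna was higher than the mean of retina and fat body by 3.90 on the log2 scale (SE 0.45, adjusted p = 1.47e-05, limma). This held in each of 27 alternatives, with a limma adjusted p from 2.56e-06 to 0.0019. Against brain and ovary the log2 difference was 0.50 (SE 0.42, adjusted p = 0.337, limma).

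HSALG028471.1 had the highest antenna level relative to brain and ovary, at 243% of the lowest mean, but its antenna libraries disagreed. They stood at 48.4, 0 and 43.4 RPKM, against 20.9, 8.67 and 16.1 RPKM in non-visual brain, 17.1, 14.6 and 6.002 RPKM in optic lobe and 33.8, 16.2 and 12.4 RPKM in ovary. Retina had 1.65, 3.61 and 0 RPKM, and fat body 0, 3.58 and 0 RPKM. Antenna replicates 1 and 3 lay above every other library, and replicate 2 at the bottom. Its coding length is 258 bases, and 59, 0 and 34 reads lay behind the antenna values. The difference to retina and fat body was 2.73 (SE 0.95, adjusted p = 0.0707, limma) and passed the threshold in 3 of 27 alternatives, and the limma adjusted p over the 27 ran from 0.000272 to 0.289. HSALG005957.1, the gene with the widest margin, had reads in antenna replicate 3 only. It had 0, 0 and 164 reads in the antenna libraries, and its 27.1 RPKM in replicate 3 lay above each of its brain and ovary libraries. Its antenna difference was -2.14 to brain and ovary (SE 0.75, adjusted p = 0.027, limma) and 1.22 to retina and fat body (SE 0.79, adjusted p = 0.359, limma).

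The other 4 genes higher in antenna than in retina and fat body are named after their values were seen, because there were 5 in all. HSALG014144.2 stood at 4.27, 8.53 and 12.5 RPKM in antenna, against 2.75, 1.48 and 0 RPKM in retina and 0, 3.42 and 0 RPKM in fat body. It was higher in antenna by 2.24 on the log2 scale (SE 0.56, adjusted p = 0.0134, limma). HSALG000817.2 was higher by 1.95 (SE 0.48, adjusted p = 0.012, limma), with 16.7, 9.15 and 29.9 RPKM in antenna. It was also lower in antenna than in brain and ovary (log2 difference -2.05, SE 0.45, adjusted p = 0.00195, limma), and so held a middle level. HSALG012020.1 stood at 13.9, 41.0 and 37.6 RPKM in antenna, against 12.4, 8.47 and 3.78 RPKM in retina and 6.92, 10.6 and 8.13 RPKM in fat body. On the log2 scale its antenna level was higher by 1.69 (SE 0.49, adjusted p = 0.0315, limma). HSALG010281.1 stood at 7.95, 16.2 and 19.4 RPKM in antenna, against 5.19, 5.48 and 4.22 RPKM in retina and 2.67, 4.89 and 1.79 RPKM in fat body. Its antenna level was likewise higher by 1.60 (SE 0.42, adjusted p = 0.0187, limma). In these last genes and in HSALG014144.2 all 3 antenna libraries lay above all 6 libraries of the low side. None (0) of the 4 genes just named passed the limma threshold in the fit with library weights or in the fit without the other tissues, where HSALG025370.1 was the 1 gene higher. Without antenna replicate 2, 3 of the 5 still passed it, and without antenna replicate 3, 4 of the 5 did.

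**Figure D5:**
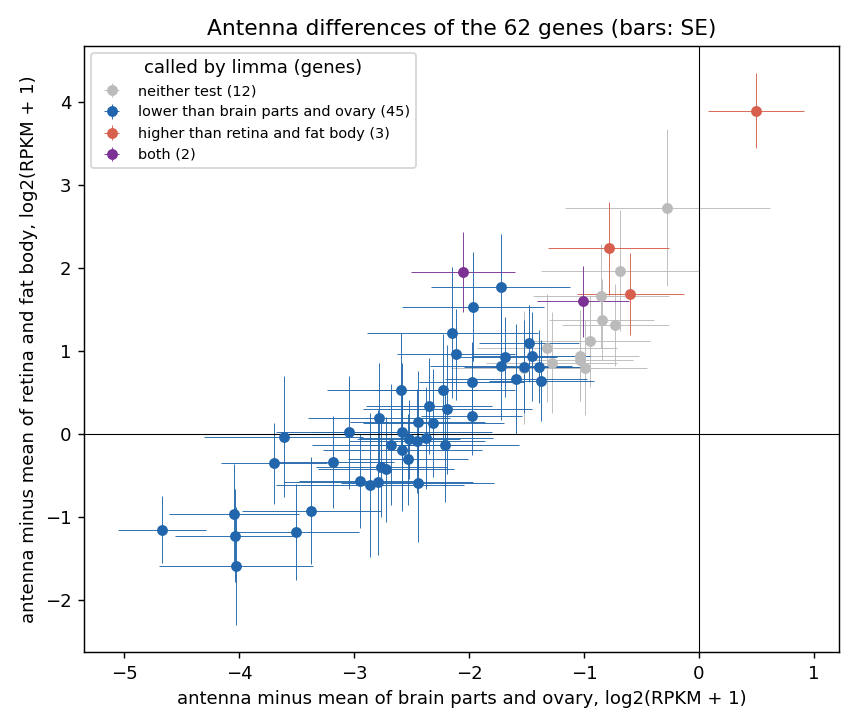
Antenna minus the mean of brain parts and ovary (horizontal) against antenna minus the mean of retina and fat body (vertical) for the 62 genes, both as differences of log2(RPKM + 1) with SE bars. By limma, 45 genes were lower than brain and ovary only, 3 were higher than retina and fat body only, 2 were both and 12 passed neither test.

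Coding length was not used by the rule except through the RPKM. Coding lengths of the 62 genes ran from 258 to 4407 bases, with a median of 1232. The median was 1032 bases in the 2473 other even genes with 2462 lengths recovered, and 972 bases over the rows tested. Genes with their highest level in non-visual brain had an antenna level of 26.9% of the lowest mean on median, those highest in optic lobe 42.0% and those highest in ovary 43.2%.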

How the data were processed

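The values are RPKM as deposited by the authors, 1 column per library. Per the labels' protocols, RNA was reverse transcribed from random hexamers in libraries that keep no strand, so overlapping antisense genes cannot be told apart. The submitters' processing notes name STAR 2.5.0b. How reads were counted or shared among near-identical genes, and on which build and annotation, was not given in the sources used here. Library totals, coding lengths and whole reads were recovered from the steps of the RPKM for 16175 rows (87.0% of the 18589 rows above 0), where every value was whole within print rounding and a relative tolerance of 1.5e-06. Of the recovered HSALG lengths, 98.1% were multiples of 3, but the scale of the totals was chosen to make most lengths so. Whole values were likewise a condition for a row to be recovered. Neither is therefore a check of the recovery. Between 48.4% and 68.0% of the counts from 1 to 10 were even, depending on the library. Intervals that treat reads as independent are therefore not given, apart from the floor of 3 reads for genes without antenna reads.

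Tests used limma 3.58.1 (R 4.3.3, mean-variance trend) on log2(RPKM + 1) with all 6 tissues in 1 fit. Rows needed 1 RPKM or more in 3 libraries, which 12996 rows met, and all 62 genes passed that filter. Such log2 differences understate changes of low genes. P-values are two-sided and Benjamini-Hochberg adjusted over all rows tested. The fit and the recovery of reads were tested on simulated data.

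The genes, the lists and the tests were chosen with earlier results of these data known. Genes are named by a rule: the 2 with the widest margin, the 2 highest and 2 lowest in antenna relative to the lowest brain or ovary mean, those beside the 4-fold limit and the 2 with the highest lowest mean. Others are marked as named after their values were seen. Alternatives changed the scaling, the pseudocount, the filter, the libraries, the block, the weights and the limits of the rule.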

Additional observations from a re-analysis of the deposited data

How the results depend on the processing

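The number of genes chosen was 62. It was 102 with libraries rescaled to the same sum of RPKM (45 of the 62 among them), 3 with median-ratio factors, 1 with quantile normalization and 37 with medians in place of means. Margins of 3 and 6 gave 133 and 13 genes, level minimums of 5 and 20 RPKM gave 126 and 18, and leaving out 1 library gave 37 (ovary replicate 1) to 72. The 47 genes lower in antenna than in brain and ovary became 29 with quantile normalization, 32 to 46 under the other alternatives that kept all libraries, and 30 to 51 with 1 library left out. Genes higher in that comparison stayed at 0 in every alternative run. The 5 genes higher in antenna than in retina and fat body became 12 with RPKM rescaled to equal sums, 1 with library weights, 1 without the other tissues, and 4 to 7 with 1 library left out. The 0 genes lower in that comparison became 3 with a pseudocount of 0.1, 1 without the filter, 1 with median-ratio factors, 2 with quantile normalization, and 0 to 5 with 1 library left out. The causes of these shifts were not tested.

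Replicate numbers are not said to pair libraries, and 9 of 45 same-numbered pairs had deviations correlated above 0.1. With a replicate block, 46 genes were lower than brain and ovary and 5 higher than retina and fat body, and 8 of 18 libraries correlated best with their own number.

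Over all rows, the count lower than brain and ovary (4889) became 2385 with a pseudocount of 5, 3245 with median-ratio factors, 2144 with quantile normalization and 2512 with library weights, which gave 270 higher in place of 564. Against retina and fat body, 692 rows were higher and 784 lower. These became 1190 higher with the same sum, and 406 (pseudocount 5), 1689 (median-ratio factors), 1453 (quantile normalization), 512 (without retina replicate 2) and 1808 (without antenna replicate 3) lower. Without the other tissues there were 337 in each direction, and with library weights 215 higher and 261 lower, where the estimate of the weights stopped short of its tolerance. The median gene of all rows lay at -0.99 against brain and ovary, -0.67 with median-ratio factors and -0.45 with quantile normalization, and the median of the 62 stayed below it in each. At the smallest antenna depth, 3 reads over 1 kilobase equal 1.27 RPKM, which limits what can be said of low antenna levels.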

Other observations

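Of the 438 rows with XLOC identifiers, which the rule left out, 1 met the same limits. XLOC_031906 stood at 23.2, 21.2 and 16.8 RPKM in non-visual brain, 42.7, 31.2 and 99.8 RPKM in optic lobe and 23.3, 29.2 and 23.9 RPKM in ovary, against 5.06, 2.47 and 2.77 RPKM in retina and 12.3, 0 and 2.23 RPKM in fat body. Its antenna libraries stood at 1.61, 25.8 and 10.1 RPKM. Optic lobe replicate 3 was its highest library, and each brain and ovary library lay above each retina and fat body library.

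With median-ratio factors, the rule chose HSALG004086.2 and HSALG004530.2 of the 62 genes, at margins of 4.24 and 4.45, and also HSALG004652.2 at 4.97, which as deposited had a margin of 9.05. They are named because the rule chose no others under that scaling.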
